A study of Mus musculus with 10 samples.

Results

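The 9 genes described here encode the molecules by which leukocytes hold on to blood vessels and tissue: the vessel-wall ligands Vcam1, Icam1 and Icam2, the leukocyte integrin subunits Itga4, Itgal, Itgam, Itgax and Itgb2, and Selplg, the selectin ligand PSGL-1. They were chosen by name for that role, and all 9 were among the 13299 genes of the deposited table and among the 13236 that passed a filter on low values. RNA came from the whole kidney of old mice (1.5 years), 5 heterozygous for the RagC S74N knock-in allele (Rragc S74N/+) and 5 wild-type controls (Rragc +/+). The knock-in changes the endogenous gene, so every cell of the animal carried 1 mutant allele, leukocytes, vessels and tubules alike, and neither group received a further allele or agent. RagC, a GTPase subunit, tells the growth kinase mTORC1 that nutrients are present, and S74N is an activating change. Libraries were 3′-end mRNA libraries, in which each transcript gives a read near its poly(A) tail, and the question here was how the transcripts of the adhesion machinery differed between the genotypes.

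Leukocytes leave blood in steps. PSGL-1 on the leukocyte binds selectins and lets the cell roll, chemokine signals then switch integrins to a high-affinity form, and the integrins lock on to immunoglobulin-family ligands on the endothelium. The pair α4β1 (VLA-4, whose α subunit is Itga4) binds VCAM1 and fibronectin. The β2 integrins share the subunit Itgb2 (CD18): with Itgal it forms LFA-1, which binds ICAM1 and ICAM2, with Itgam it forms Mac-1 (CD11b, a marker of neutrophils, monocytes and macrophages), and with Itgax it forms p150,95 (CD11c, found on dendritic cells and many tissue macrophages). Endothelium at rest carries ICAM2, and inflammatory cytokines acting through NF-κB raise VCAM1 and ICAM1. In the kidney, VCAM1 is also made by tubule cells after injury.

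RefSeq promoter windows (GRCm38.p6) were at hand for 4 of the 9 members, Itga4, Itgam, Itgax and Icam1. The 250 bases upstream of the annotated start are shown for Icam1, as the inducible ligand whose level did not pass the test below, and for Itga4, as one of the members whose level did. Both are read from the plus strand, Icam1 at chr9:21015690-21015939 and Itga4 at chr2:79255176-79255425, and capitals mark a match to a κB site (GGAAATTCC).
Icam1: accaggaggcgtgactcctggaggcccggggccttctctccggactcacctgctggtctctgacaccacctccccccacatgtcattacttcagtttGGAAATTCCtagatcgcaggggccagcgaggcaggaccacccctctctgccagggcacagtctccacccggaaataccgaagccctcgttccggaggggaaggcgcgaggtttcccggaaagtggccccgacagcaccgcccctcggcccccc
Itga4: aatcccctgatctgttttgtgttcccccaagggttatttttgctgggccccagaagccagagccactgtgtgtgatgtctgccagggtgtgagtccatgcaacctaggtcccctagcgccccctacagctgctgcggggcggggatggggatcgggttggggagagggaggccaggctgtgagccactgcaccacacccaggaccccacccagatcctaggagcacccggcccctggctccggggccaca
Icam1 held this match from position -153 to -145, counted from the annotated start. Of 32851 promoter windows of this length, searched on both strands, 0.286% held these letters. A looser κB form (GGG and CC around 5 bases of any kind) was in 45.8% of windows and occurred in those of Icam1 and Itgam. The letters GAGGAA, a core bound by PU.1 and other ETS factors of myeloid cells, were found on each strand of the Itgam window and in 23.3% of all windows, and CACGTG, the E-box core that TFEB and TFE3 recognise, was in no member window and in 6.02% of all. Itga4 and Itgax held none of these 4 letter patterns. The matches describe letters only, since no binding was measured.

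The reads behind the normalized counts could be recovered for 8 of the 10 libraries and came to between 4488493 and 5797251 in these. Rragc itself, whose transcript the knock-in does not remove, overlapped between the groups, at 114 to 204 normalized counts in Rragc +/+ and 90.1 to 160 in Rragc S74N/+. Kidney identity held in every library, since all 10 tubule and podocyte markers looked for were measured, at a summed 35357 to 42140 in Rragc +/+ and 27828 to 34815 in Rragc S74N/+. These sums did not overlap, and 3 of the 10 markers fell in limma, Slc12a3 (log2 difference -1.94), Umod (-1.55) and Slc5a2 (-1.05), so these tubule transcripts were lower in the group of kidneys in which Vcam1 and Itga4 were higher. The part of this in the members' differences was not tested. In limma (two-sided, Benjamini-Hochberg adjusted p under 0.05), 798 of 13236 genes passed, of which 457 were higher and 341 lower in the mutants. With library totals set equal, the count was 943, and the split moved to 718 higher and 225 lower.

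Vcam1 and Itga4, the ligand and the α subunit of its receptor, rose in Rragc S74N/+ kidneys, by 2.17-fold and 2.44-fold, and the other 7 members did not pass the test. The 2 members called were both higher, against 3.45% of all tested genes that were called higher and 6.03% called in either direction. At an unadjusted p under 0.05, 4 of the 9 were higher, Vcam1, Itga4, Itgal and Itgb2, against 12.6% of all genes. The log2 difference was above 0 for 8 of the 9, with a median of 0.81, where 48.7% of all genes were above 0 and their median was -0.01. In none of the 9 did the groups separate completely, while 8.16% of all genes had groups that did not overlap and 4.15% had all mutants above all controls. In bulk tissue, more leukocytes and more transcript per leukocyte cannot be told apart.

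**Figure D1:**
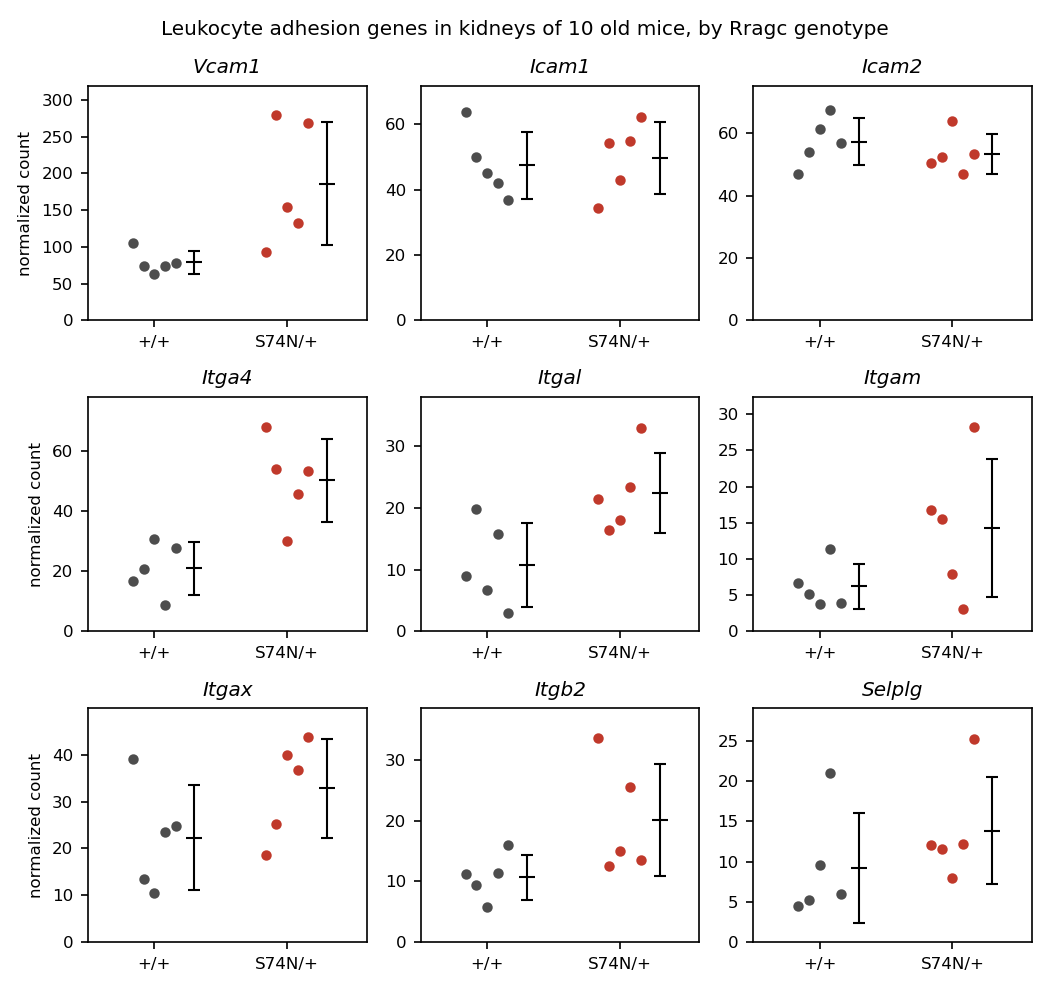
Normalized counts (vertical axes, each from 0) of the 9 members in the 5 Rragc +/+ kidneys (grey) and the 5 Rragc S74N/+ kidneys (red), with points in replicate order and the bar showing the mean ± SD. Vcam1 and Itga4 have 4 of 5 Rragc S74N/+ points above the highest Rragc +/+ point, and Icam1 and Icam2 have 0 of 5.

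Vcam1 encodes vascular cell adhesion molecule 1. Its normalized counts in Rragc +/+ kidneys were 105, 73.9, 63.4, 74.2 and 78.6 in replicates 1 to 5. In Rragc S74N/+ kidneys they were 93.3, 279, 155, 132 and 269. Thus 4 of the 5 mutants lay above every control, and replicate 1 of the mutants lay below the highest control. The mutant kidneys were also far more spread out, with a coefficient of variation of 45.1% against 19.8%, where counting reads alone would give 7.34% and 11.2%. The log2 difference was 1.12 ± 0.26 (SE, n = 5 per group; limma, adjusted p = 0.0201; 2.17-fold, 95% interval 1.49 to 3.18), and the exact two-sided permutation test gave p = 0.0159, where the smallest p the design allows is 0.00794.

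The call for Vcam1 depended on single animals. Leaving out each sample in turn kept it in 7 of 10 limma fits, and the adjusted p rose to 0.0560 when Rragc +/+ replicate 2 was left out, to 0.0511 when replicate 4 of that group was, and to 0.0586 when Rragc S74N/+ replicate 5 was. Its log2 difference lay between 0.94 and 1.34 over these fits.

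Itga4 encodes the α4 subunit carried by monocytes, lymphocytes and eosinophils. Its normalized counts were 16.8, 20.8, 30.7, 8.73 and 27.9 in Rragc +/+ kidneys. They were 68.1, 54.3, 30.0, 45.8 and 53.4 in Rragc S74N/+ kidneys. All mutants but replicate 3, the lowest at 30.0, lay above the highest control at 30.7. The log2 difference was 1.29 ± 0.31 (SE, n = 5 per group; limma, adjusted p = 0.0257; 2.44-fold, 95% interval 1.54 to 3.88; exact permutation p = 0.0159).

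The mutant with the least Vcam1, replicate 1, had the most Itga4. The Itga4 call was kept in 5 of 10 fits that each left out 1 sample, and the largest adjusted p, 0.0667, was found without Rragc +/+ replicate 1. It also exceeded 0.05 in limma when control replicates 2 (adjusted p = 0.0589) or 4 (0.0542) were left out, or mutant replicates 2 (0.0522) or 5 (0.0633). Between 10 and 73 reads per library lay behind its values in the 8 libraries whose reads could be recovered.

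**Figure D2:**
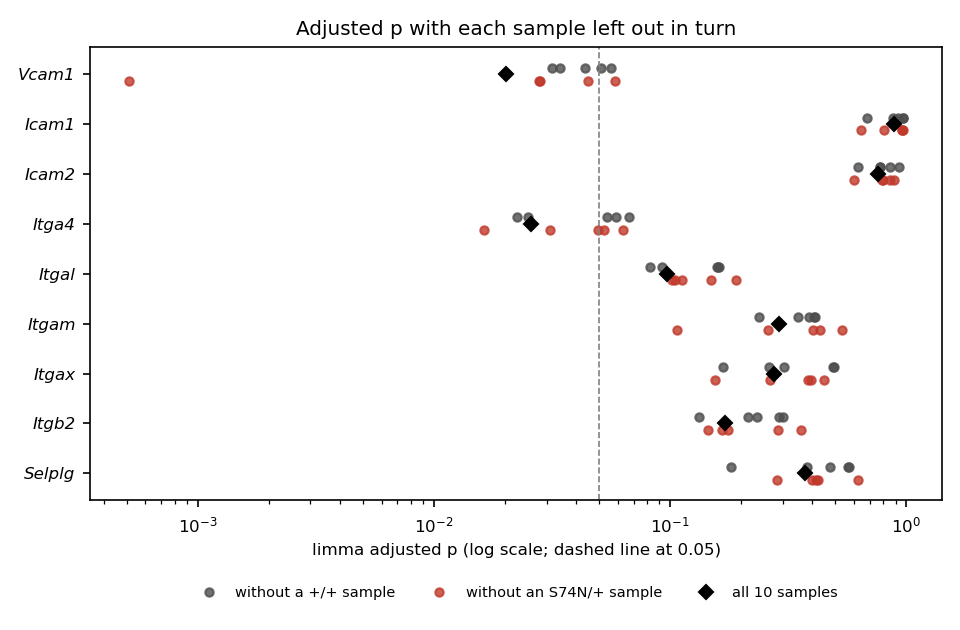
Adjusted p from limma (horizontal log axis, dashed line at 0.05) for each member with all 10 samples (black diamonds) and with 1 Rragc +/+ (grey) or 1 Rragc S74N/+ sample (red) left out. Vcam1 ranges from 0.000512 to 0.0586 and Itga4 from 0.0162 to 0.0667, and the other 7 members stay to the right of the line in all fits.

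Icam1 and Icam2, the ligands of LFA-1, did not differ between the groups by more than the spread of the samples. Icam1 stood at 63.8, 49.9, 45.1, 41.9 and 36.8 in Rragc +/+ kidneys and at 34.5, 54.3, 43.0, 55.0 and 62.2 in Rragc S74N/+ kidneys. The mutant group held the lowest value and the control group the highest, so the groups overlapped over nearly their whole range. The log2 difference was 0.06 ± 0.21 (SE, n = 5 per group; limma, adjusted p = 0.887), and the 95% interval of the fold ran from 0.766 to 1.42.

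Icam2, which endothelium carries without stimulation, ranged from 47.0 to 67.2 in Rragc +/+ and from 46.8 to 64.0 in Rragc S74N/+ kidneys. Its log2 difference was -0.10 ± 0.17 (SE, n = 5 per group; limma, adjusted p = 0.762), with a fold between 0.729 and 1.20 at 95% confidence. Of the 3 ligands, then, Vcam1 passed the test, and for Icam1 and Icam2 the intervals excluded the 2.17-fold difference measured for Vcam1. Icam2 was also the steadiest member, with a coefficient of variation of 13.3% in Rragc +/+ and 12% in Rragc S74N/+, near the 13.2% and 13.7% that counting alone would give.

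Itgal, the α subunit of LFA-1 on lymphocytes and most other leukocytes, had normalized counts of 8.95, 19.8, 6.72, 15.7 and 2.98 in Rragc +/+ kidneys. The Rragc S74N/+ kidneys had 21.4, 16.5, 18.0, 23.4 and 33.0. All 5 mutants were above the control median and 3 were above every control. The log2 difference of 1.17 ± 0.41 (SE, n = 5 per group) was of the size of that of Vcam1 but missed the threshold over all genes (limma, adjusted p = 0.0966; exact permutation p = 0.0317).

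Itgb2, the shared β2 subunit, was measured at 11.2, 9.36, 5.76, 11.4 and 15.9 in Rragc +/+ kidneys. The values in Rragc S74N/+ kidneys were 33.6, 12.6, 15.0, 25.5 and 13.6. Replicates 1 and 4 of the mutants stood above all controls, and the other 3 lay within the upper part of the control range. The log2 difference was 0.81 ± 0.36 (SE, n = 5 per group; limma, adjusted p = 0.171; exact permutation p = 0.0476).

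The CD11b subunit Itgam was among the members with the fewest reads, 3 to 29 per library in the 8 recovered libraries. It stood at 6.71, 5.2, 3.84, 11.4 and 3.98 in Rragc +/+ and at 16.8, 15.5, 8.0, 3.06 and 28.2 in Rragc S74N/+ kidneys. The mutant group held both the lowest and the highest of the 10 values. The log2 difference of 0.89 ± 0.51 (SE, n = 5 per group; limma, adjusted p = 0.289) had a 95% interval of the fold from 0.873 to 3.94, so neither no difference nor a rise like that of Itga4 lay outside it at this depth.

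Itgax, the CD11c subunit, ranged from 10.6 to 39.2 in Rragc +/+ and from 18.7 to 43.7 in Rragc S74N/+ kidneys, and its log2 difference was 0.61 ± 0.34 (SE, n = 5 per group; limma, adjusted p = 0.276). The control with the most Itgax, replicate 1, was also the control with the most Vcam1 and the most Icam1. Itgam and Itgax are neighbours in the GRCm38.p6 annotation, with 0 protein-coding genes between them, and 35 such genes lie between Itgam and Itgal.

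Selplg gave 4.47, 5.2, 9.60, 21.0 and 5.97 normalized counts in Rragc +/+ kidneys and 12.1, 11.6, 8.0, 12.2 and 25.3 in Rragc S74N/+ kidneys. A single library in each group, replicate 4 of the controls and replicate 5 of the mutants, stood above the rest, which lay between 4.47 and 12.2. The log2 difference was 0.65 ± 0.44 (SE, n = 5 per group; limma, adjusted p = 0.372). Of 10 tested genes for the glycans that PSGL-1 needs to bind selectins, 0 passed in limma, edgeR or DESeq2 (3 at an unadjusted limma p under 0.05), with a median log2 difference of -0.06, and the smallest adjusted p values belonged to St3gal6 (0.39, adjusted p = 0.127) and B4galt5 (-0.47, adjusted p = 0.148).

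Sample titles carry a number, and splitting the kidneys at 200 gives 3 of each genotype below and 2 of each above. The labels do not call this a batch. Vcam1 was higher in the mutants by 1.0 (log2) below the split and 1.29 above it, and Itga4 by 1.09 and 1.59. The 4 β2-integrin subunits were positive in both ranges, from 0.55 for Itgax to 1.17 for Itgam below and from 0.44 for Itgb2 to 1.82 for Itgal above. Icam1 was at -0.27 below and 0.56 above, and Icam2 at 0.04 and -0.30, so these ligands had no common direction.

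Among all 21 integrin subunits of the table, a list drawn up after the data were seen, 2 were called and both were higher, Itga4 and Itga2. The median log2 difference was 0.22, and 3.45% of all tested genes were called higher. Itga2, the collagen-binding α2 subunit of platelets, epithelium and some T cells, was at 0 to 6.72 normalized counts in Rragc +/+ and 8.0 to 18.4 in Rragc S74N/+, with a log2 difference of 2.41 ± 0.55 (SE, n = 5 per group; limma, adjusted p = 0.0199). The 16 subunits outside the member list had a median of 0.09 and ran from -0.40 to 2.41. Itgb1 and Itgb7, the β partners of α4, chosen here after their values were seen, had log2 differences of 0.38 (568 ± 92.4 against 737 ± 75.5, SD) and 0.98 (5.83 ± 5.6 against 11.4 ± 5.68), with limma adjusted p of 0.0780 and 0.282.

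**Figure D3:**
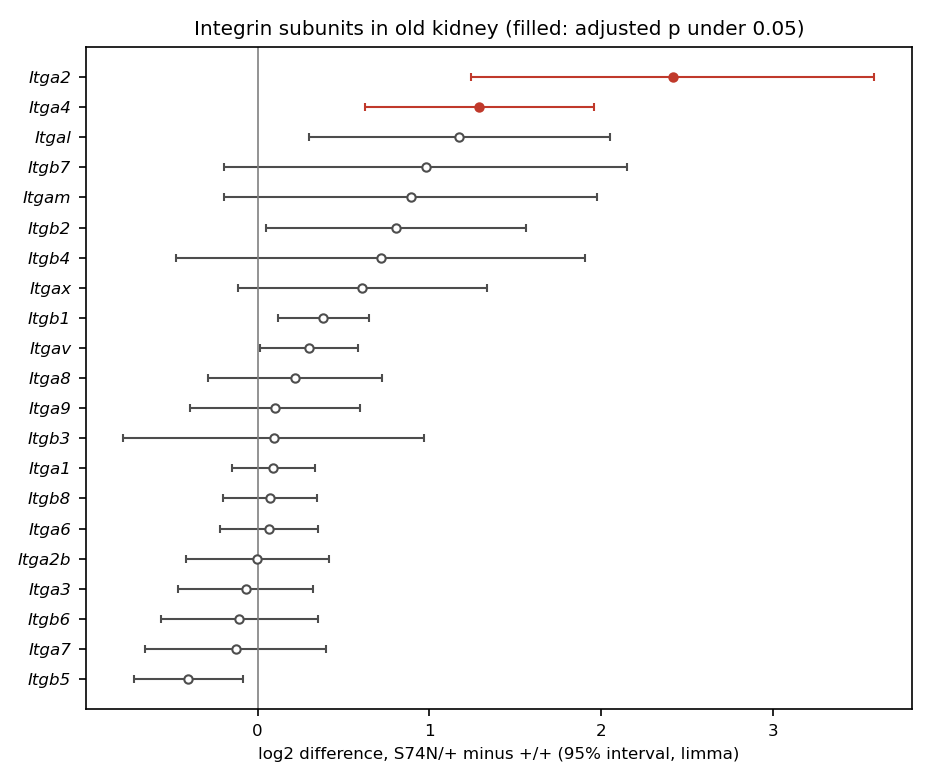
Log2 difference (Rragc S74N/+ minus Rragc +/+, horizontal axis, limma with 95% intervals) of all 21 integrin subunits in the table, sorted by size, with filled red points for an adjusted p under 0.05. Itga2 (2.41) and Itga4 (1.29) are the called subunits, and the next below them, Itgal at 1.17, is not called.

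Beyond the members, 26 other adhesion genes were tested, 2 of them rose, 0 fell, and their median log2 difference was 0.30. Across all tested genes 3.45% were called higher and 6.03% in either direction. Cd44, the hyaluronan receptor of leukocytes and injured epithelium, stood at 11.7 ± 3.59 in Rragc +/+ and 33.4 ± 9.13 in Rragc S74N/+ (SD, n = 5 per group; log2 difference 1.44, limma adjusted p = 0.00890), and Itga2 was the other.

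Genes that switch integrins on from inside the cell, listed with early signalling partners of leukocyte integrins, gave 4 calls among 20 tested. All 4 were higher, where 3.45% of all tested genes were called higher. The median was 0.31, with 14 log2 differences above 0 and 6 below. The activators Tln1, Fermt3, Rap1a and Rap1b were not called. Fermt3 was at 1.07 (17.1 to 35.9 normalized counts, limma adjusted p = 0.0626), and Tln1 (0.18), Rap1b (0.17) and Rap1a (-0.22) had adjusted p of 0.269 or above. Dock2, the exchange factor that activates Rac in leukocytes, rose by 1.24 ± 0.22 on the log2 scale (SE; 36.4 to 84.7 normalized counts; limma, adjusted p = 0.00442). The other calls were the haematopoietic GTPase Rac2 (1.44, adjusted p = 0.00623), the adaptor Fyb (1.03, adjusted p = 0.00920) and the Rap1 effector Apbb1ip, or RIAM (0.83, adjusted p = 0.0336). In Dock2, Rac2, Fyb and Apbb1ip all 5 mutants stood above all 5 controls, as was so for 4.15% of all tested genes. These 4 were named for their small p in the same samples, and the groups overlapped in every other tested gene of the list. On the recovered reads of 8 libraries, edgeR called 4 genes of the list and DESeq2 7, with 851 and 1402 called among all genes.

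Matrix and complement ligands of the member integrins gave 2 calls among 7, both higher, with a median of 0.05. Among all tested genes the share called higher was 3.45%. C3, whose cleaved form binds Mac-1 and p150,95, rose from 89.2 ± 36.4 to 413 ± 227 (SD, n = 5 per group; log2 difference 2.12, limma adjusted p = 0.00174). Fn1, fibronectin, rose from 44.8 ± 3.44 to 95.7 ± 29.8 (log2 difference 1.03, adjusted p = 0.00896).

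Several leukocyte marker lists also held genes that rose, where 3.45% of all tested genes were called higher. The 6 pan-leukocyte markers summed to 278 to 350 normalized counts in Rragc +/+ and 422 to 657 in Rragc S74N/+, with no overlap, and 2 of them rose, Ptprc (CD45) by 1.20 (limma, adjusted p = 0.00148) and Cd52 by 0.87 (adjusted p = 0.0315). The summed member level did not overlap either, at 237 to 303 and 349 to 582. Vcam1 was the largest single part of that sum, with means of 79.0 and 186. The sums of the other adhesion genes, the integrin activation genes and the ligand genes above did not overlap between the groups either. Abundant genes that were not called weigh most in the first 2 sums, such as Glg1 (means of 1849 and 1904, limma adjusted p = 0.862) and Tln1 (1076 and 1221, adjusted p = 0.269). The ligand sums lay close, at 552 to 662 and 679 to 1265. These sums therefore do not show that the genes of a list rose together. Replicate 1 of the mutants had the lowest member sum (349) and the least Vcam1 (93.3) of its group. It had the most Itga4 (68.1) and Itgb2 (33.6) of the mutants, and its pan-leukocyte sum of 610 was above those of replicates 3 and 4. Of 12 macrophage and monocyte markers 6 rose and 0 fell, with 10 log2 differences above 0 and 2 below. The 2 below were C1qc (-0.48, limma adjusted p = 0.309) and Cd68 (-0.34, adjusted p = 0.598), and Adgre1 was near 0 (0.18, adjusted p = 0.791). The smallest p belonged to Ccr2 (1.58, adjusted p = 0.00148) and Cx3cr1 (1.22, adjusted p = 0.00150). The sum of the 12 markers went from 712 to 911 up to 1158 to 1628. The 6 tested T and NK cell markers summed to 35.8 to 62.4 and 97.8 to 142, with Trac called (1.08, adjusted p = 0.0295), while edgeR and DESeq2 on 8 libraries called 0 of these markers.

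Neutrophil markers summed to 21.1 to 38.0 and 43.0 to 83.0 over the 3 of 11 that were tested, S100a9 being the called one (1.46, limma adjusted p = 0.0399). S100a8 was at 1.14 (adjusted p = 0.0741) and Cxcr2 was near 0 (0.14, adjusted p = 0.895). Ly6g, Mpo and Elane were not found by name among the 13299 genes of the deposited table. Of 3 tested B and plasma cell markers 0 were called in limma, edgeR or DESeq2 (2 at an unadjusted limma p under 0.05; median 0.86), with the smallest limma adjusted p for Ms4a1 (0.0842) and Jchain (0.138). Of 3 tested dendritic cell markers, Xcr1 and Zbtb46 among them, 0 were called by these tools and 0 at an unadjusted limma p under 0.05 (median 0.05). The part of leukocyte content in the differences of Vcam1, Itga4 and the other members was not tested beyond the ratios given next.

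**Figure D4:**
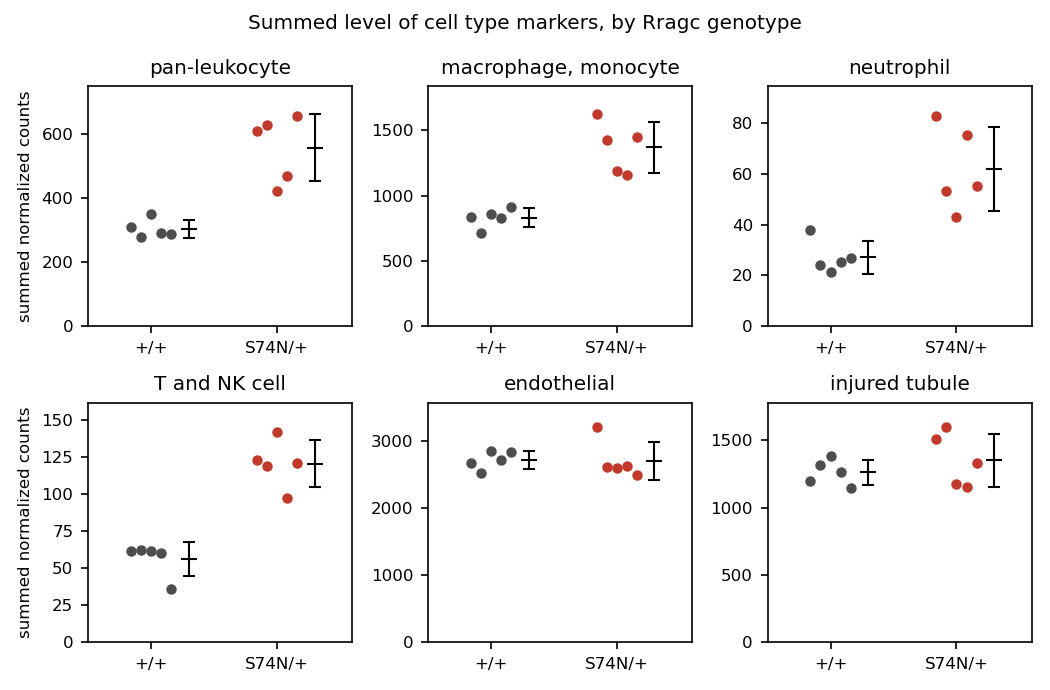
Summed normalized counts (vertical axes, from 0) of 6 marker lists in the 5 Rragc +/+ (grey) and 5 Rragc S74N/+ kidneys (red), with bars for the mean ± SD. Pan-leukocyte sums lie at 278 to 350 and 422 to 657 and do not overlap, and endothelial sums lie at 2529 to 2849 and 2492 to 3214 and do.

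Set against the mean log2 level of the pan-leukocyte markers of the same kidney, Vcam1 was 0.46 higher in Rragc S74N/+ (95% interval -0.12 to 1.03; limma, adjusted p = 0.175) and Itga4 was 0.63 higher (-0.06 to 1.32; adjusted p = 0.122). Neither passed the test on this scale with all 10 samples, and Vcam1 was called higher when Rragc S74N/+ replicate 1, the mutant with the least Vcam1, was left out. Itgal (0.51), Itgam (0.23), Itgb2 (0.14), Selplg (-0.01) and Itgax (-0.05) lay on both sides of 0, all with intervals that held 0. With Ptprc alone as the reference, Vcam1 was at -0.08 (limma, adjusted p = 0.778) and Itga4 at 0.09 (adjusted p = 0.805), so their positive differences did not hold on that scale. Icam2 fell by 0.76 relative to the leukocyte markers (SE 0.31; limma, adjusted p = 0.0389; exact permutation p = 0.0476), and Icam1 was at -0.60 (adjusted p = 0.101). The 1 member called compares with 43.4% of all genes called on this scale (86.1% with Ptprc alone as the reference), and Icam2 lost its call in 8 of the 10 fits without 1 sample, keeping it without Rragc +/+ replicate 1 and without Rragc S74N/+ replicate 3.

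Set against 11 endothelial markers, whose sums overlapped between the groups, Vcam1 was 1.13 ± 0.30 higher (log2, SE; limma, adjusted p = 0.0465) and Itga4 1.30 ± 0.31 higher (adjusted p = 0.0274), where 3.46% of all genes were called on this scale and 2.46% were called higher. Leaving out 1 sample at a time kept the Vcam1 call on this scale in 1 of 10 fits, the one without Rragc S74N/+ replicate 1, and the Itga4 call in 5 of 10. Icam1 was at 0.07 and Icam2 at -0.09. With Pecam1 and Cdh5 alone as the endothelial reference, 0 of 9 members passed in limma (2 at an unadjusted p under 0.05), with Vcam1 at 0.84 (adjusted p = 0.270) and Itga4 at 1.01 (adjusted p = 0.181). Endothelial genes themselves gave 0 calls higher and 1 lower among 11, Plvap, a component of the diaphragms of fenestrated capillaries, which fell by 0.93 on the log2 scale (272 to 145 normalized counts; limma, adjusted p = 0.00879). The endothelial markers did not move together, with 7 log2 differences above 0 and 4 below. Kdr was at -0.49 (limma, adjusted p = 0.0506), with 421 to 548 normalized counts in Rragc +/+ and 236 to 397 in Rragc S74N/+.

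**Figure D5:**
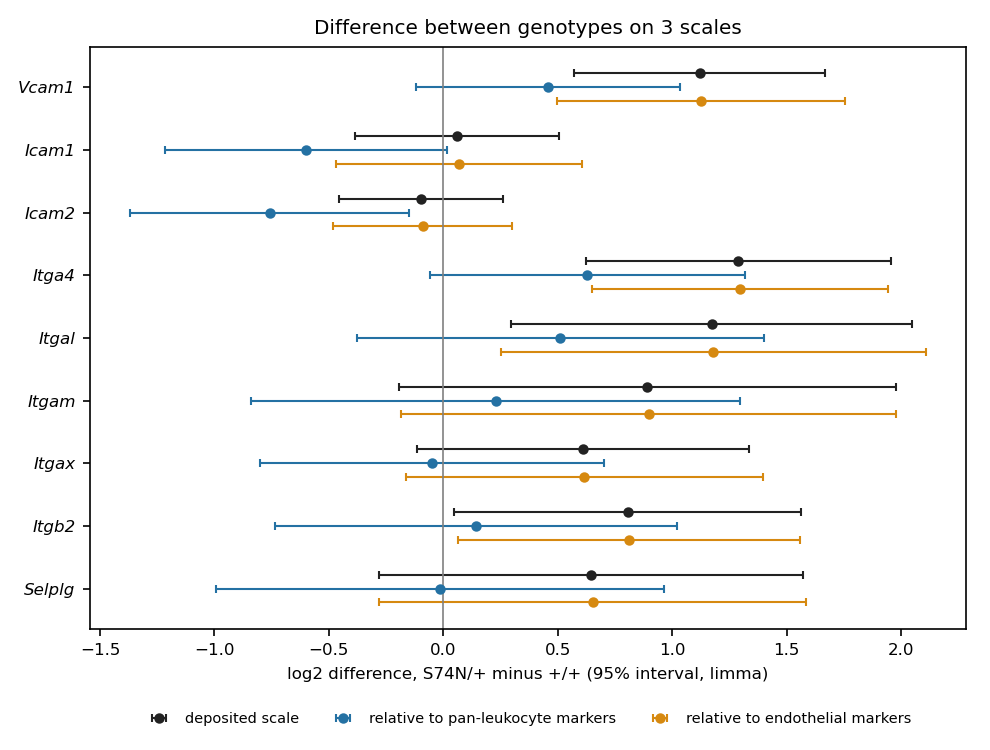
Log2 difference (Rragc S74N/+ minus Rragc +/+, horizontal axis, limma with 95% intervals) of each member on the deposited scale (black), relative to 6 pan-leukocyte markers (blue) and relative to 11 endothelial markers (orange). Relative to leukocyte markers, Vcam1 (0.46) and Itga4 (0.63) have intervals that reach below 0 and Icam2 (-0.76) lies below 0.

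Of the cell types that can carry Vcam1 outside vessels, fibroblast markers had 2 of 6 called higher, Col1a1 and Pdgfra, with a median of 0.49. Markers of injured tubule had 2 of 8 called higher, Havcr1 and Lcn2, with a median of 0.13, 5 log2 differences above 0 and 3 below. Of all tested genes, 3.45% were called higher. Lcn2 was widely spread in the mutants, from 18.3 to 307 normalized counts, against 6.11 to 23.0 in the controls. The summed levels of both lists overlapped between the genotypes, at 482 to 961 and 886 to 1656 for fibroblasts and at 1144 to 1384 and 1152 to 1596 for injured tubule. Which cells gave the Vcam1 reads was not tested.

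Across the 10 kidneys, the genes with a mean normalized count of at least 50 whose log2 level went most closely with Vcam1 were Fam32a (Pearson r = 0.92), Gm38394, Dop1a, Ltn1 and Reep6 (0.89). For Itgb2 they were Rassf1 (0.94), Akap8, Gm14391, Ccni and Itgav (0.93). These are the top 5 of 7741 and 7742 genes over 10 samples that share the genotype contrast and the libraries, so they are given as a description only.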

How the data were processed

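Total RNA from whole kidney was made into 3′ mRNA libraries with a QuantSeq forward kit and sequenced on an Illumina NextSeq. The submitters' processing notes name FastQC 0.11.7, TopHat2 2.0.10 with Bowtie 1.0.0 and SAMtools 0.1.19, HTSeq 0.6.1, DESeq2 and the build GRCm39. The deposited table holds, for 10 samples, a signal per gene that the authors made by dividing gene counts by size factors. Dividing by the value of 1 read returned whole reads (within 0.01) for 100% of values in 8 samples. In the other 2 the step was too close to 1.

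Genes with a normalized count of at least 5 in at least 5 samples were kept (63 removed) and log2(value + 1) was tested with limma 3.58.1 (R 4.3.3, trended eBayes, genotype alone, two-sided, Benjamini-Hochberg over all 13236 genes, threshold 0.05). Fold changes are on that scale, where the added 1 draws those of low genes toward no change. They can lie above or below the ratio of group means, as for Itgal (2.25 against 2.08) and Itgam (1.85 against 2.30). Single members were also tested by an exact permutation of normalized counts (252 allocations, unadjusted). For the ratios, the mean log2 value of the marker genes was subtracted per sample before the fit. Alternatives were other filters, pseudocounts, scalings and eBayes settings, edgeR 4.0.16 and DESeq2 1.42.0 on the recovered reads of 8 samples, and each sample left out. The fits were tested on simulated data.

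The members and gene lists were chosen with earlier results of these data known. All members are named, and from each other list at most the 4 called genes with the smallest p, or the 2 smallest where none was called, plus the 5 genes most like Vcam1 and Itgb2. The result of 1 further list is not reported here. Any further gene was chosen after its values were seen. Replicates were numbered in deposit order, the labels giving only the animal's own title, so p-values measure the spread between these kidneys. RefSeq sequences (GRCm38.p6) are used for their letters only, since the files were aligned to another build. Ddx3y, a Y-linked gene, was at 170 or above in every library; the labels give no sex.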

Additional observations from a re-analysis of the deposited data

Results flagged for a closer look

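Selplg, the PSGL-1 gene, stood apart in 1 library: Rragc S74N/+ replicate 5 had 25.3 normalized counts, where the other 4 kidneys of that group had 8.0 to 12.2, a gap of 0.755 of the group's range against a Dixon critical value of 0.71. Among 18 groups of 5 searched (9 members in 2 genotypes), chance alone gives about 0.9 such gaps. The same kidney had the most Itgam, Itgax, Itgal and Icam1 of its group.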

How the results depend on the processing

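Vcam1 and Itga4 were both called higher with pseudocounts of 0.5 and 5, without a filter, with equal totals or 75th percentiles, with robust eBayes, with the title number range as a term, and in limma, edgeR and DESeq2 on 8 samples. Vcam1 was called in 11 of 12 alternatives, with log2 differences of 1.08 to 1.30, and Itga4 in 10 of 11, with 1.13 to 1.59. The exception was eBayes without a trend, where 0 members passed (limma adjusted p of 0.0667 for Vcam1 and 0.0579 for Itga4) and 391 genes were called in place of 798. With a mean normalized count of at least 50, 1 member was called, Vcam1, since Itga4 is removed by that filter. DESeq2 called 1402 genes. The other 7 members were called in no alternative.

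Leaving out each sample gave 311 to 902 genes and 0 to 2 members past the threshold, 0 without Rragc +/+ replicate 2, Rragc +/+ replicate 4 or Rragc S74N/+ replicate 5. Relative to pan-leukocyte markers the count was 0 to 2, and 2 with Ptprc alone as the reference (Icam1 at -1.14 and Icam2 at -1.30, limma adjusted p of 0.000495 and 0.000108), where 86.1% of all genes were called. Relative to endothelial markers it was 0 to 2, and 0 with Pecam1 and Cdh5. The log2 difference of Icam1 ran from -0.0246 to 0.183 and changed sign without Rragc +/+ replicate 5 (-0.0224) and without Rragc S74N/+ replicate 5 (-0.0246). The cause of these changes was not tested.

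No paired analysis was possible because the labels give no replicate numbers. Itgam, Itgb2, Selplg and Itgal had as few as 3 to 7 reads in a library, so counting error is a large part of their spread, up to 40.1% of the mean in Rragc +/+ for Itgam.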
